A study of Mus musculus with 38 samples.

Results

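The 7 genes described here encode the transcription factors EGR1, EGR2, EGR3 and EGR4 and the orphan nuclear receptors NR4A1 (NUR77), NR4A2 (NURR1) and NR4A3 (NOR1). They were chosen by name from the 54532 genes of the count table, and all 7 were among the 22798 genes with enough counts to be tested. RNA had been sequenced in 38 libraries of oligodendrocyte precursor cells (OPCs), the dividing glia of the brain that mature into myelinating oligodendrocytes. The cells came from mouse forebrain at postnatal days 6 to 7, by immunopanning on an antibody against PDGFRA after 2 plates meant to remove microglia and endothelial cells, and each library pooled 2 mice. The 19 KO libraries (NG2:Cre+;Bmal1fl/fl) numbered 4, 7, 4 and 4 at zeitgeber times (ZT) 0, 6, 12 and 18, and the 19 WT libraries (NG2:Cre-;Bmal1fl/fl) numbered 4, 5, 6 and 4. ZT0 is lights on and ZT12 is lights off, no drug was given, and both sexes were used. All mice of both genotypes carried the floxed allele of Bmal1, a core activator of the circadian clock. No group carried Cre with an intact Bmal1, so an effect of the Cre transgene cannot be told apart from loss of BMAL1. Cre was driven by the promoter of NG2 (Cspg4), which is active in OPCs and also in mural cells of blood vessels.

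Egr and Nr4a genes are immediate early genes: they are transcribed within minutes of a stimulus by factors already present in the cell, and their short-lived transcripts then decline. EGR proteins bind GC-rich sites through zinc fingers and are held back by the corepressors NAB1 and NAB2, whereas NR4A receptors act without a known natural hormone and bind the response element called NBRE. Serum response factor with its ternary complex partners acts on many Egr promoters through the CArG box, and CREB acts on many Nr4a promoters through the cyclic AMP response element (CRE). In glia and neurons both families are induced by growth factors, calcium entry and neuronal activity, and dissociation of tissue into single cells is also a known inducer of such genes.

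The median library held 25.9 M (mega) counts, the shallowest 19.4 M and the deepest 39.0 M. Ribosomal RNA genes held 0.263% or less of the counts in 8 libraries, called low-rRNA here, and 0.409% or more in the other 30. All 4 KO ZT18 libraries, KO ZT6 replicate 7 and WT ZT12 replicates 4, 5 and 6 were low-rRNA, so at ZT18 this difference and genotype cannot be told apart. All 10 OPC markers were counted in every library, with summed levels of 12326 to 18815 CPM (counts per M). All 12 microglia and macrophage markers were counted in every library too, with sums of 3645 to 16497 CPM, and for a change in these bulk samples fewer cells of a type and less RNA per cell cannot be told apart. Arntl, the mouse symbol of Bmal1, averaged 20.8, 20.8, 22.0 and 19.2 CPM in KO at ZT0, ZT6, ZT12 and ZT18, against 24.1, 20.6, 22.8 and 25.6 CPM in WT. Its count per gene includes exons that remain after Cre acts, so it does not check the genotype labels.

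The windows before the start of 5 of the 7 genes are shown so that the motif matches described after them can be seen in place. They are read from RefSeq (GRCm38.p6), 5′ to 3′ on the strand of the gene. Capitals mark the short form of the CRE, TGACG or its reverse complement CGTCA, and in Egr2 also a CArG box.
Egr2: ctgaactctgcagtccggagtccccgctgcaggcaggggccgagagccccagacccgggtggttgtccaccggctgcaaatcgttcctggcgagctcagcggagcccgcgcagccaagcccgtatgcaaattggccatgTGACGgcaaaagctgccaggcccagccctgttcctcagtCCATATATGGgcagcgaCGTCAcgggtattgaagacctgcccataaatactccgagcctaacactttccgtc
Egr4: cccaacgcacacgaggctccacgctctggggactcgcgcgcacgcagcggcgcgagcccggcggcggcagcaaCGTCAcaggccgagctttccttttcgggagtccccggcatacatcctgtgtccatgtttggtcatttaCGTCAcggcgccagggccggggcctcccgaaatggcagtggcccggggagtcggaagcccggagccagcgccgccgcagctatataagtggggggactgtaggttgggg
Nr4a1: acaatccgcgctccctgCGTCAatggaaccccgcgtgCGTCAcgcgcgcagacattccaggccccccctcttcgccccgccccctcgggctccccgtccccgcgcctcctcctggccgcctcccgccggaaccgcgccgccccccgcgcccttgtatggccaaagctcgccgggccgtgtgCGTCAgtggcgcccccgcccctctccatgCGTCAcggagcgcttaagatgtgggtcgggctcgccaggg
Nr4a2: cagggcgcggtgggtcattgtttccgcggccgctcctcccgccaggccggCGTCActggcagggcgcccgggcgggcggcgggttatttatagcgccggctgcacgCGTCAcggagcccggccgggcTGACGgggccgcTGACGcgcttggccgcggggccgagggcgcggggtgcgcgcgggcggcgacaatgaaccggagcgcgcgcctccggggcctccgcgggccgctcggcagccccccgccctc
Nr4a3: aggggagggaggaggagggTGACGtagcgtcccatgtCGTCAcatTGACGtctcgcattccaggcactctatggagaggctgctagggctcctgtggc
The Egr2 window is chr10:67537619-67537868 on the plus strand and that of Egr4 is chr6:85513590-85513839 on the minus strand. The Nr4a1 window is chr15:101266596-101266845 on the plus strand, and the Nr4a2 window is chr2:57124004-57124253 on the minus strand. For Nr4a3 the stretch shown is chr4:48045055-48045152 on the plus strand, 98 bases that end before the first annotated exon. The Egr2 and Nr4a1 windows lie inside the annotated spans of these genes, which begin at 67535475 and 101254269. Windows before any other start of these genes are not described.

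In the 250 bases before the start, a short CRE was found 4 times in each of Nr4a1, Nr4a2 and Nr4a3, and 2 times in each of Egr2 and Egr4. For Nr4a3, 3 of the 4 lie in the stretch shown. Of 32851 RefSeq windows of the same length, 17.8% held at least 1 short CRE on either strand, 3.90% at least 2 and 0.137% at least 4. The CArG box, sought on both strands and present 1 time in Egr2, was found in 1.47% of all windows. The EGR site, sought as GCGTGGGCG or GCGGGGGCG on both strands, occurred 1 time in Nr4a1 and in 3.06% of all windows. The E-box CACGTG, the site BMAL1 binds with CLOCK, was in none of these 5 windows and in 6.02% of all windows. The NBRE, sought as AAAGGTCA, was likewise in none of the 5 and in 1.34% of all windows. The full CRE, TGACGTCA, which contains the short CRE on both strands, was in none of the 5 and in 1.55% of all windows. These are matches of letters only. No window of Egr1 or Egr3 is shown.

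**Figure D1:**
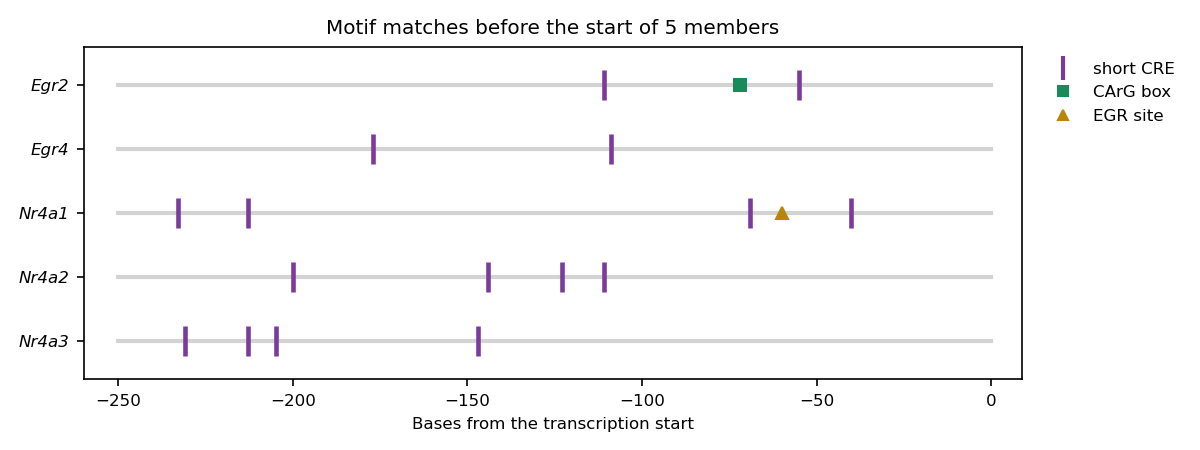
Matches of 3 motifs in the 250 bases before the RefSeq start of 5 members, with distance from the start in bases on the x axis and a row per gene. Nr4a1, Nr4a2 and Nr4a3 each have 4 short CRE matches, and Egr2 and Egr4 each have 2.

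Per kb of gene length, Egr1 was the most abundant of the 7 genes, at a mean over all libraries of 447 CPM per kb. Its mean of 2005 CPM stood at percentile 99.9 of the tested genes. Nr4a1 followed at 61.0 CPM per kb, then Egr2 at 21.7, Egr3 at 18.3, Nr4a3 at 4.32, Nr4a2 at 2.30 and Egr4 at 1.95 CPM per kb. The least abundant values still rested on reads, with 23 counts for Egr4 in its lowest library and 77 counts for Nr4a2 in its lowest. Ranges over single libraries were wide, from 6.12-fold for Nr4a1 between its lowest and highest library to 18.9-fold for Egr3. No other annotated gene of the table overlapped any of the 7, so their reads are not shared with an overlapping or antisense gene.

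Egr1 (ENSMUSG00000038418, chromosome 18, 34859823 to 34864984, GRCm38) encodes the founding zinc finger factor of the family. In KO, Egr1 stood at 534, 1774, 993 and 1023 CPM at ZT0, 1742 to 3843 CPM with a median of 2436 in the 7 libraries of ZT6, 1655, 2167, 1210.5 and 1099 CPM at ZT12 and 1080.4, 1223, 1215 and 1605 CPM at ZT18. In WT, Egr1 stood at 1804, 2083, 2274 and 796 CPM at ZT0, 2167, 2405, 2341, 2277 and 2251 CPM at ZT6, 1185 to 4229 CPM with a median of 2685 in the 6 libraries of ZT12 and 2066, 1727, 2114 and 1528 CPM at ZT18. The genotypes overlapped at every time, KO ZT6 was the highest group and KO ZT0 the lowest, and WT ZT0 replicate 4 and WT ZT12 replicates 2 and 3 were far under their group mates. Group means were 1081 ± 513 CPM in KO ZT0 against 1739 ± 658 CPM in WT ZT0 (SD, n = 4 each). At ZT18 they were 1281 ± 226 CPM in KO against 1859 ± 279.7 CPM in WT (SD, n = 4 each). Egr1 passed no test between the genotypes: its log2 fold changes, KO over WT, were -0.69 at ZT0, 0.25 at ZT6, -0.77 at ZT12 and -0.54 at ZT18, with SE of 0.319, 0.264, 0.296 and 0.318 and adjusted p-values of 0.242, 0.974, 0.124 and 0.380.

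Egr2 (ENSMUSG00000037868, chromosome 10, 67535475 to 67542188), known from Schwann cells as a master regulator of myelin genes, was counted in KO at 26.1, 37.2, 55.3 and 77.0 CPM at ZT0, 63.0 to 141 CPM with a median of 101 in the 7 libraries of ZT6, 38.5, 48.7, 70.3 and 48.5 CPM at ZT12 and 52.4, 64.4, 63.2 and 80.7 CPM at ZT18. In WT the values of Egr2 were 48.3, 47.7, 49.3 and 56.6 CPM at ZT0, 83.4, 114, 91.1, 109 and 90.1 CPM at ZT6, 50.1 to 168 CPM with a median of 84.1 in the 6 libraries of ZT12 and 41.5, 25.6, 38.6 and 25.6 CPM at ZT18. All 4 KO ZT18 libraries lay above all 4 WT ZT18 libraries, and at ZT12 the 3 low-rRNA WT libraries were the 3 highest of their time. At ZT12 Egr2 fell by 0.91 on the log2 scale in KO relative to WT (SE 0.266, adjusted p = 0.0399). At ZT18 the log2 fold change was 0.99 (SE 0.288), with an adjusted p of 0.0557 that misses the threshold of 0.05.

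Egr3 (ENSMUSG00000033730, chromosome 14, 70077203 to 70082614), which has a role in muscle spindles, lymphocytes and neuronal plasticity, was counted in KO at 36.0, 26.5, 50.6 and 79.4 CPM at ZT0, 48.2 to 211 CPM with a median of 90.2 in the 7 libraries of ZT6, 31.8, 44.1, 59.5 and 44.7 CPM at ZT12 and 64.9, 59.4, 64.4 and 61.6 CPM at ZT18. WT libraries held 60.3, 57.2, 45.2 and 70.5 CPM at ZT0, 144, 197, 165, 118 and 70.3 CPM at ZT6, 54.7 to 168 CPM with a median of 92.4 in the 6 libraries of ZT12 and 19.5, 11.1, 42.2 and 21.9 CPM at ZT18 of Egr3. The 4 KO ZT18 libraries were within a few CPM of each other and all above the WT ZT18 libraries, while both genotypes spread widely at ZT6. Egr3 averaged 62.6 ± 2.54 CPM in KO at ZT18 against 23.7 ± 13.2 CPM in WT (SD, n = 4 each), a rise of 1.40 in log2 fold change (SE 0.377, adjusted p = 0.0426). At ZT12 it averaged 45.0 ± 11.3 CPM in KO (SD, n = 4) against 99.6 ± 40.7 CPM in WT (SD, n = 6) and fell by 1.15 on the log2 scale (SE 0.348, adjusted p = 0.0469).

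Egr4 (ENSMUSG00000071341, chromosome 6, 85511121 to 85513589), the least abundant of the 7 genes and known for its role in male germ cells, was counted in KO at 3.37, 1.51, 6.21 and 3.16 CPM at ZT0, 1.22 to 6.73 CPM with a median of 4.14 in the 7 libraries of ZT6, 1.44, 1.72, 1.73 and 2.14 CPM at ZT12 and 7.04, 5.90, 6.89 and 7.16 CPM at ZT18. In WT it was counted at 1.49, 2.80, 2.08 and 3.44 CPM at ZT0, 4.27, 5.67, 5.30, 5.56 and 4.78 CPM at ZT6, 1.98 to 10.1 CPM with a median of 5.66 in the 6 libraries of ZT12 and 1.71, 0.935, 1.58 and 2.22 CPM at ZT18. At ZT12 all KO libraries were at or below 2.14 CPM and only WT replicate 1, at 1.98 CPM, was that low among WT. At ZT18 the order was the other way, with every KO library above every WT library. Egr4 averaged 1.76 ± 0.287 CPM in KO at ZT12 (SD, n = 4) against 6.25 ± 2.93 CPM in WT (SD, n = 6), 3.55-fold lower in the fit, at -1.83 in log2 fold change (SE 0.381, adjusted p = 0.00478). At ZT18 it averaged 6.75 ± 0.577 CPM in KO against 1.61 ± 0.527 CPM in WT (SD, n = 4 each), 4.17-fold higher, at 2.06 in log2 fold change (SE 0.405, adjusted p = 0.0107).

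Nr4a1 (ENSMUSG00000023034, chromosome 15, 101254269 to 101274795), an early responder to antigen receptor, cyclic AMP and calcium signals, was counted in KO at 139, 94.6, 233 and 257 CPM at ZT0, 131 to 387 CPM with a median of 304 in the 7 libraries of ZT6, 81.3, 93.7, 157 and 184 CPM at ZT12 and 338, 281, 283 and 279 CPM at ZT18. In WT the Nr4a1 values were 110.1, 94.7, 85.0 and 248 CPM at ZT0, 273, 326, 289, 306 and 267 CPM at ZT6, 162 to 385 CPM with a median of 239.7 in the 6 libraries of ZT12 and 75.4, 63.2, 112 and 94.6 CPM at ZT18. The KO ZT18 libraries lay within the range of the KO ZT6 libraries, and all 4 were above the highest WT ZT18 library. KO ZT6 replicates 6 and 7 and WT ZT0 replicate 4 stood apart from their groups. Nr4a1 averaged 295 ± 28.6 CPM in KO at ZT18 against 86.2 ± 21.3 CPM in WT (SD, n = 4 each) and rose 3.43-fold (log2 fold change 1.78, SE 0.331, adjusted p = 0.00866), the 12th smallest p-value of the 22798 genes at this time. At ZT12 the averages were 129 ± 49.5 CPM in KO (SD, n = 4) and 249 ± 82.6 CPM in WT (SD, n = 6), at -0.95 in log2 fold change (SE 0.302) with an adjusted p of 0.0596.

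Nr4a2 (ENSMUSG00000026826, chromosome 2, 57106830 to 57124003), required for midbrain dopamine neurons, was counted in KO at 10.7, 5.53, 15.1 and 13.5 CPM at ZT0, 5.23 to 18.6 CPM with a median of 10.05 in the 7 libraries of ZT6, 4.11, 5.27, 4.09 and 6.88 CPM at ZT12 and 15.4, 12.3, 12.7 and 12.8 CPM at ZT18. The WT libraries had 7.50, 6.75, 4.60 and 10.04 CPM at ZT0, 11.0, 12.7, 10.9, 14.1 and 9.59 CPM at ZT6, 6.31 to 12.5 CPM with a median of 7.03 in the 6 libraries of ZT12 and 2.92, 4.15, 7.92 and 7.27 CPM at ZT18 of Nr4a2. KO ZT18 again lay above WT ZT18 in every library, and the KO ZT12 group had the lowest mean of the 8 groups. Nr4a2 rose 2.38-fold at ZT18, to 13.3 ± 1.45 CPM in KO against 5.56 ± 2.41 CPM in WT (SD, n = 4 each; log2 fold change 1.25, SE 0.326, adjusted p = 0.0358). At ZT12 its log2 fold change was -0.77 (SE 0.304, adjusted p = 0.138).

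Nr4a3 (ENSMUSG00000028341, chromosome 4, 48045153 to 48086447), a receptor closely related to NR4A1 with overlapping roles in immune cells, was counted in KO at 41.8, 10.4, 49.6 and 66.4 CPM at ZT0, 7.94 to 39.7 CPM with a median of 23.2 in the 7 libraries of ZT6, 10.9, 8.53, 12.8 and 22.0 CPM at ZT12 and 54.3, 45.3, 36.5 and 37.1 CPM at ZT18. Nr4a3 values of the WT libraries were 9.19, 10.7, 7.79 and 66.6 CPM at ZT0, 27.4, 32.2, 23.5, 42.5 and 22.5 CPM at ZT6, 8.35 to 41.4 CPM with a median of 23.1 in the 6 libraries of ZT12 and 7.47, 9.23, 8.96 and 9.19 CPM at ZT18. The WT ZT18 libraries were the most uniform group of this gene, and WT ZT0 replicate 4, at 66.6 CPM, stood far above the next WT ZT0 library at 10.7 CPM. WT ZT12 split into 3 libraries between 36.3 and 41.4 CPM and 3 between 8.35 and 9.98 CPM, with low-rRNA libraries on both sides. At ZT18 Nr4a3 averaged 43.3 ± 8.38 CPM in KO against 8.71 ± 0.837 CPM in WT (SD, n = 4 each) and rose 4.97-fold (log2 fold change 2.31, SE 0.58, adjusted p = 0.0305). At ZT12 the log2 fold change was -0.82 with an SE of 0.520 (adjusted p = 0.393).

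**Figure D2:**
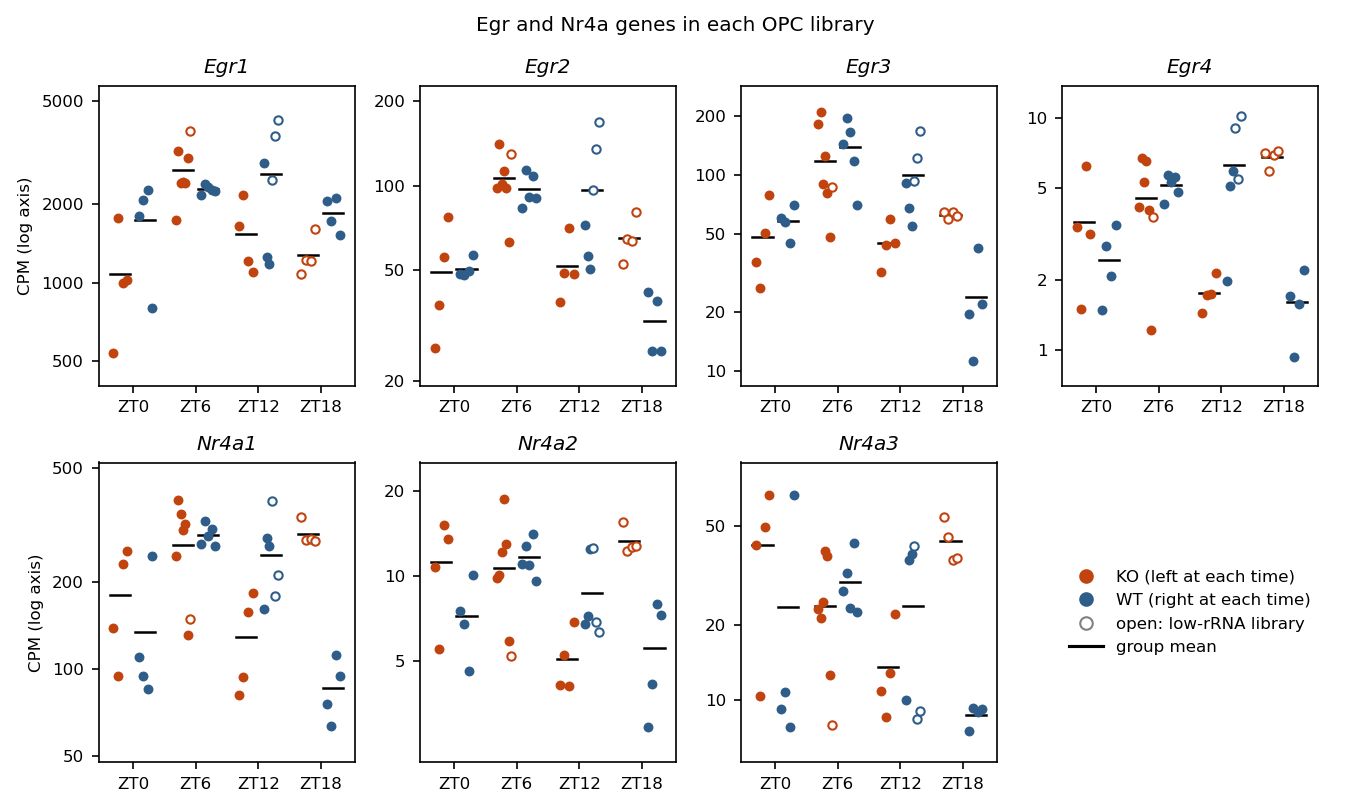
Counts per M (CPM, log axis) of the 7 genes in each library by time of day, with KO left of WT at each time, black lines at the group means and open circles for the 8 low-rRNA libraries. At ZT18 every KO library lies above every WT library for each of the 7 genes but Egr1.

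Put in order, the means of the 8 groups formed a gradient with overlapping neighbours. Of the 7 pairs of neighbouring groups, none was apart in its single libraries for any gene except 1 pair for Egr1. WT ZT18 was the lowest group for Egr2, Egr3, Egr4, Nr4a1 and Nr4a3, and KO ZT18 was the highest for Egr4 and all 3 Nr4a genes. The highest group mean exceeded the lowest by 2.52-fold for Egr1, 3.24-fold for Egr2, 5.86-fold for Egr3, 4.19-fold for Egr4, 3.43-fold for Nr4a1, 2.61-fold for Nr4a2 and 4.97-fold for Nr4a3.

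At ZT18, in the middle of the dark phase, 6 of the 7 genes were higher in every KO library than in every WT library, and 5 of them passed the test, all higher in KO: Egr3, Egr4, Nr4a1, Nr4a2 and Nr4a3. Of all 22798 genes, 2.14% passed at ZT18 and 1.39% passed as higher in KO. How many of all genes had every KO library above every WT library at ZT18 was not counted. The median log2 fold change was 1.40 over the 7 genes and 1.78 over the 3 Nr4a genes, against -0.0036 over all genes tested. Under library size alone as the scaling, the calls of all genes split into 198 higher and 259 lower in KO, against 318 higher and 170 lower with TMM, and with RLE scaling into 237 and 234, while the signs of all 7 genes were unchanged under both. With library size alone the calls of Egr3 (adjusted p = 0.0545) and Nr4a2 (adjusted p = 0.0534) were lost. Egr4 and Nr4a1 stayed past the threshold in all 38 fits that left out 1 library, but the calls of Nr4a2 and Nr4a3 were lost without any 1 of the 8 ZT18 libraries (adjusted p up to 0.106 for Nr4a2 and 0.0971 for Nr4a3), and that of Egr3 in 9 fits (WT ZT0 replicate 2, KO ZT12 replicate 2, WT ZT18 replicates 1, 2 and 4 and each KO ZT18 library; adjusted p up to 0.122). Without the 13 libraries that held RNA of 1 sex only, which left 3 KO and 2 WT libraries at ZT18, none of the 7 passed and 1 of all genes did, with a log2 fold change of 2.00 for Egr4 (adjusted p = 0.147), 1.58 for Nr4a1 (adjusted p = 0.221) and 2.26 for Nr4a3 (adjusted p = 0.287).

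At ZT12, the start of the dark phase, the direction was the other way. The log2 fold changes of all 7 genes were negative, with a median of -0.91 against -0.0076 over all genes tested, and 3 passed the test, all lower in KO: Egr2, Egr3 and Egr4. Of all genes, 5.00% passed at ZT12 and 3.69% passed as lower in KO. With library size alone the calls of all genes split into 424 higher and 578 lower, against 298 higher and 841 lower with TMM, and the 7 genes kept their sign. The Egr3 call was lost with library size alone (adjusted p = 0.0625) and with RLE (adjusted p = 0.0559), and the Egr2 call with limma-voom (adjusted p = 0.0578). Without the 13 single-sex libraries, which left 4 KO and 2 WT libraries at ZT12, Nr4a3 turned to a log2 fold change of 0.64 (adjusted p = 0.653). Egr1 then passed at -1.37 (adjusted p = 0.0106), beside Egr2 at -1.56 (adjusted p = 0.000187), Egr3 and Egr4. In this fit 712 of all genes, or 3%, passed at ZT12. The 2 WT libraries left were replicates 5 and 6, both low-rRNA, and no KO ZT12 library was low-rRNA. Genotype and the low-rRNA difference therefore cannot be told apart at ZT12 in this fit. The WT ZT12 group was heterogeneous, and its 3 low-rRNA libraries had the highest Egr2 and Egr3 values of that time. Without the 8 low-rRNA libraries, which left 4 KO and 3 WT libraries at ZT12, none of the 7 passed and 1 of all genes did: Egr4 then had a log2 fold change of -1.29 (adjusted p = 0.288), Egr3 of -0.67 (adjusted p = 0.616) and Egr2 of -0.21 (adjusted p = 0.861). The Egr4 call was kept in all 38 fits that left out 1 library, whereas the calls of Egr2 and Egr3 were lost without any 1 of WT ZT12 replicates 4, 5 and 6 or of the 4 KO ZT12 libraries (adjusted p up to 0.168 for Egr2 and 0.175 for Egr3), and that of Egr3 also without any 1 of another 14 libraries.

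At ZT0 and ZT6 no call was made on any of the 7 genes. At ZT0, where 0.285% of all genes passed, the log2 fold changes were 0.43 for Nr4a1, 0.63 for Nr4a2, 0.84 for Nr4a3 and 0.54 for Egr4, and -0.69 for Egr1, -0.04 for Egr2 and -0.28 for Egr3, with adjusted p-values from 0.242 to 0.956. The Nr4a3 result there rested on WT ZT0 replicate 4: without that library Nr4a3 passed at ZT0, with an adjusted p of 0.00935, and the number of all genes that passed reached 2208 in place of 65. At ZT6, where 0.0132% of genes passed, the log2 fold changes lay between -0.31 for Nr4a3 and 0.25 for Egr1, with SE from 0.235 to 0.454. Over all 4 times, weighted equally, 0.0921% of genes passed and none of the 7 did, with log2 fold changes from -0.44 (Egr1, SE 0.149, adjusted p = 0.157) to 0.51 (Nr4a3, SE 0.260, adjusted p = 0.353). Without WT ZT0 replicate 4, both Egr1 (adjusted p = 0.0478) and Nr4a3 (adjusted p = 0.0373) passed over all times. Unadjusted p-values under 0.05 were reached by 4191 genes at ZT0, 1000 at ZT6 and 3444 over all times.

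**Figure D3:**
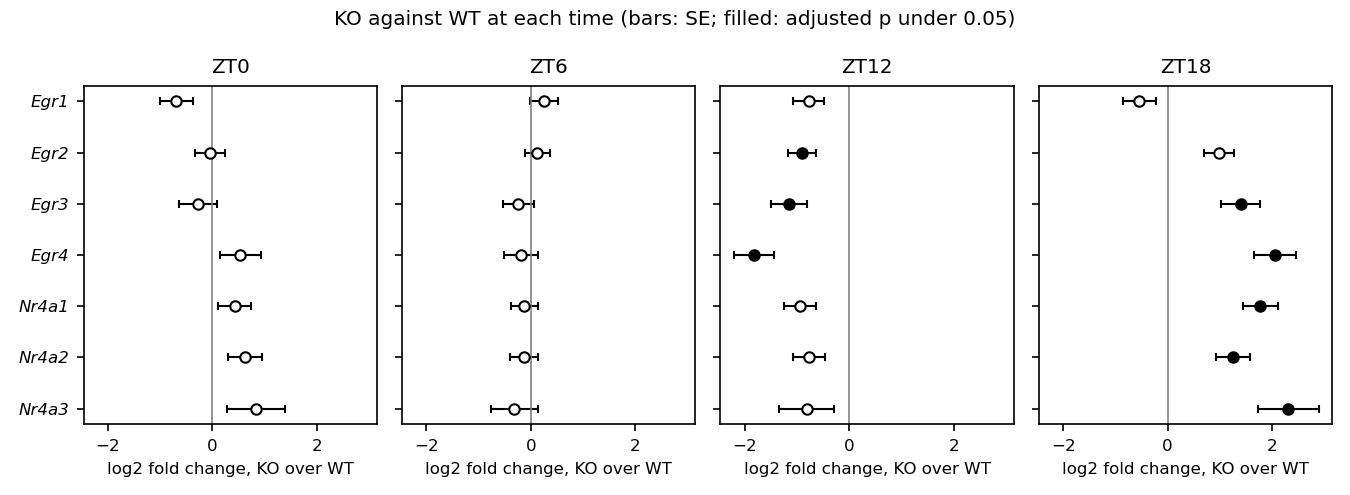
Log2 fold change, KO over WT, of the 7 genes at each time with SE bars; filled points have an adjusted p under 0.05. At ZT12 all 7 lie below 0 with 3 filled, at ZT18 all but Egr1 lie above 0 with 5 filled, and at ZT0 and ZT6 none is filled.

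Whether the genotype difference depended on time was tested directly. Of the 7 genes, 6 passed (all but Egr1), beside 9.19% of all genes. The adjusted p-values were 0.0103 for Egr2, 0.00823 for Egr3, 0.000327 for Egr4, 0.00104 for Nr4a1, 0.0102 for Nr4a2 and 0.0222 for Nr4a3, and Egr1 had 0.202. The calls held in all 38 fits that left out 1 library, except that Nr4a3 had an adjusted p of 0.0516 without KO ZT12 replicate 1. Without the 13 single-sex libraries 4 of the 7 passed, beside 3.05% of all genes. The calls of Nr4a1 (adjusted p = 0.0983), Nr4a2 (adjusted p = 0.271) and Nr4a3 (adjusted p = 0.279) were lost, and Egr1 passed (adjusted p = 0.0397). In that fit every WT ZT12 and KO ZT18 library was low-rRNA, and no KO ZT12 or WT ZT18 library was. Without the 8 low-rRNA libraries no KO library remained at ZT18, and over the other times none of the 7 and none of all genes tested passed, with adjusted p-values from 0.298 for Egr4 to 0.901 for Egr2.

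Most of these genes depended on time of day in both genotypes. In KO, 6 of the 7 passed the test of equal levels at the 4 times, beside 21.9% of all genes, and Nr4a3 had an adjusted p of 0.0624. The KO libraries of ZT18 were all low-rRNA. Without the 8 low-rRNA libraries, so over ZT0, ZT6 and ZT12 in KO, 5 of the 7 passed, beside 8.93% of all genes. In WT, 4 of the 7 passed (Egr2, Egr3, Egr4 and Nr4a1), beside 4.91% of all genes, and Egr1, Nr4a2 and Nr4a3 had adjusted p-values of 0.518, 0.127 and 0.198. Without the 13 single-sex libraries the WT call of Nr4a1 was lost (adjusted p = 0.0955). In KO, Egr1 averaged 1081, 2725, 1533 and 1281 CPM at ZT0, ZT6, ZT12 and ZT18, and its level depended on time with an adjusted p of 0.00224. The highest mean of the Nr4a genes and Egr4 in KO was at ZT18 and the lowest at ZT12, and the highest of Egr1, Egr2 and Egr3 was at ZT6. In WT the lowest mean of all genes but Egr1 was at ZT18, and the highest was at ZT6 for Egr2, Egr3 and the 3 Nr4a genes and at ZT12 for Egr1 and Egr4. Egr3 had the largest span in WT, with a ZT6 mean 5.86-fold above its ZT18 mean (adjusted p of the time test 7.03e-05). Nr4a3 would have passed in WT without WT ZT0 replicate 4 (adjusted p = 0.0171).

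Egr1 and the Nr4a genes moved apart from library to library within the same group. Over the deviations of the 38 libraries from their group means, on the log2 CPM scale, Egr1 and Nr4a3 had a Pearson r of -0.781, which was -0.850 in the 19 WT and -0.682 in the 19 KO libraries. It was -0.777 in the 30 libraries that were not low-rRNA, and -0.719 without WT ZT0 replicate 4 and WT ZT12 replicate 3, the 2 libraries farthest out in Egr1. Within the Nr4a family the same deviations went together, with r of 0.774 for Nr4a1 and Nr4a2, 0.830 for Nr4a1 and Nr4a3 and 0.765 for Nr4a2 and Nr4a3. The Egr family was less uniform, since Egr1 had an r of 0.482 with Egr2, 0.106 with Egr3 and -0.185 with Egr4, while Egr4 had 0.683 with Nr4a1. Values of 2 genes from 1 library share its depth and scaling, and these coefficients are descriptions only.

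As a ratio per length, Nr4a3 ranged from 1.55 per 1000 of Egr1 in KO ZT6 replicate 7 to 62.7 in WT ZT0 replicate 4. This ratio was chosen after its values were seen and is described without a test. The group medians were 43.0, 7.63, 6.41 and 25.1 in KO at ZT0, ZT6, ZT12 and ZT18, against 3.84, 9.48, 7.53 and 3.59 in WT. Of the 11 libraries above 15 per 1000, 4 were the KO ZT18 libraries, 3 were of KO ZT0 and 1 was of KO ZT12, and 1 was of WT ZT0 and 2 were of WT ZT12. The 4 WT ZT18 libraries, 3 of the 4 WT ZT0 libraries and KO ZT0 replicate 2 were all below 5 per 1000. Low-rRNA libraries occurred at both ends, with the 3 lowest ratios in KO ZT6 replicate 7 and WT ZT12 replicates 6 and 5 and the KO ZT18 libraries between 17.3 and 37.7.

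**Figure D4:**
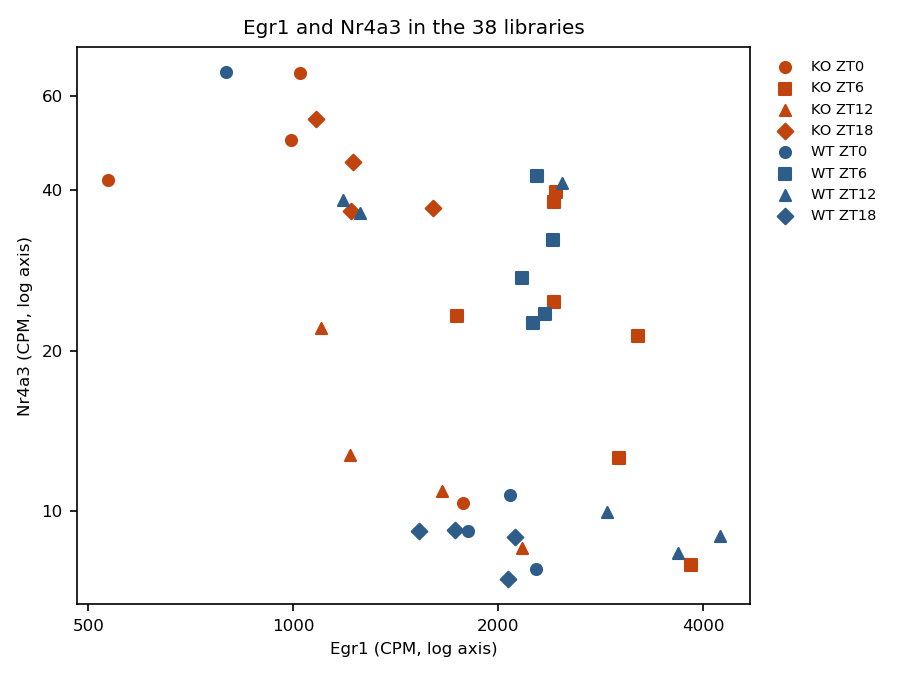
Egr1 and Nr4a3 in CPM (log axes) in each of the 38 libraries, with color for genotype and symbol for time. The 4 KO ZT18 libraries, 3 of 4 KO ZT0 libraries and WT ZT0 replicate 4 lie at 36.5 CPM or more of Nr4a3 and 1605 CPM or less of Egr1. The WT ZT18 libraries lie near the bottom, at 7.47 to 9.23 CPM of Nr4a3 and 1528 to 2114 CPM of Egr1.

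The other 33 immediate early genes of a list chosen for this description were set against both Egr1 and Nr4a3. Because Egr1 and Nr4a3 were themselves opposed (r = -0.781), opposite signs with them are largely built in. The counts of signs are therefore a description only, and no share of all genes was counted beside them. By their deviations from group means, 19 were positively correlated with Egr1 and negatively with Nr4a3, 10 the reverse, 4 positively with both and 0 negatively with both. On the Egr1 side were Fos (r with Egr1 0.947, with Nr4a3 -0.711), Jun (0.907 and -0.691) and Ier2 (0.933 and -0.668), which encode AP-1 subunits and a further early response factor. On the Nr4a3 side were Arc (r with Egr1 -0.555, with Nr4a3 0.741) and Npas4 (-0.571 and 0.721), known as neuronal activity genes, and Gadd45b (-0.510 and 0.703), Fosl2 (-0.452 and 0.691) and Dusp5 (-0.425 and 0.676). These examples were picked for their coefficients, which are over 38 libraries and carry no test.

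**Figure D5:**
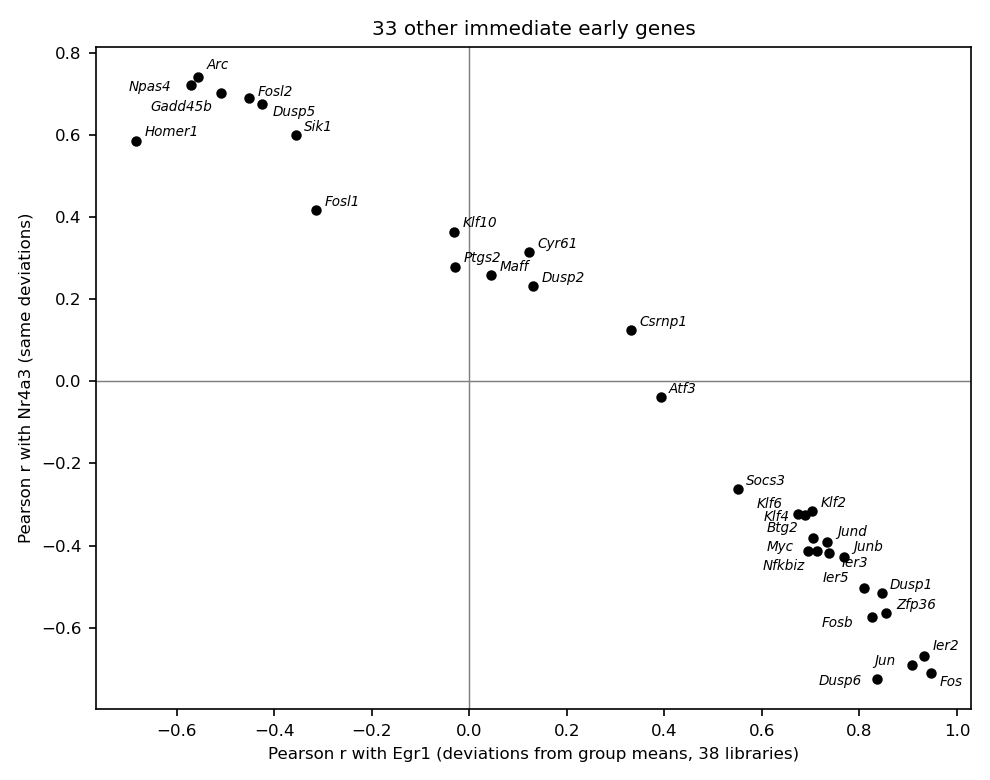
Pearson r of 33 other immediate early genes with Egr1 (x axis) and with Nr4a3 (y axis), over deviations from the group mean in 38 libraries. Fos, Jun and Ier2 lie at the lower right, and Arc, Npas4 and Gadd45b at the upper left.

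Between genotypes, 14 of these 33 genes fell at ZT12 and none rose, with 32 of 33 negative and a median log2 fold change of -0.77, beside 3.69% of all genes lower in KO. Without the 8 low-rRNA libraries none of the 33 passed at ZT12, beside 1 of all genes, with 30 negative and a median of -0.43. The largest were Jund (-1.41, SE 0.218, adjusted p = 0.000491) and Klf2 (-1.41, SE 0.298, adjusted p = 0.00515), and Fos itself had -0.62 (adjusted p = 0.217). At ZT18, 11 of the 33 rose and none fell, with 27 positive and a median of 0.70, beside 1.39% of all genes higher in KO. Without the 13 single-sex libraries none of the 33 passed at ZT18, beside 1 of all genes, with 26 positive and a median of 0.57. At ZT12 in that fit 22 of the 33 fell, and 712 of all genes (3%) passed in either direction. The WT ZT12 libraries left there were all low-rRNA, and no KO ZT12 library was. Gadd45b averaged 36.4 CPM in KO ZT18 against 4.92 CPM in WT ZT18 (log2 fold change 2.88, SE 0.64, adjusted p = 0.0182), and Dusp5, a nuclear ERK phosphatase, averaged 21.9 against 4.46 CPM (2.29, SE 0.388, adjusted p = 0.00528). Fos, Jun and Ier2, the genes most like Egr1, had log2 fold changes of -0.27, -0.11 and -0.10 at ZT18, with adjusted p-values of 0.694, 0.890 and 0.901. The genotype difference depended on time for 21 of the 33, beside 9.19% of all genes. Without the low-rRNA libraries it did so for none of the 33 and for none of all genes. Time of day passed the test for 29 of them in KO and 23 in WT, beside 21.9% and 4.91% of all genes. At ZT0 and ZT6 none of the 33 passed.

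Of 16 upstream SRF, ternary complex, CREB and MEF2 factors, 2 fell at ZT12 and 1 rose at ZT18. Of all genes, 3.69% were called lower in KO at ZT12 and 1.39% higher at ZT18. Srf, serum response factor itself, did both: it averaged 60.4 CPM in KO against 91.6 CPM in WT at ZT12 (log2 fold change -0.60, SE 0.152, adjusted p = 0.0167) and 98.1 CPM in KO against 59.1 CPM in WT at ZT18 (0.73, SE 0.164, adjusted p = 0.0189). Crtc1, a coactivator of CREB, was the other to fall at ZT12 (-0.36, SE 0.108, adjusted p = 0.0416). Mef2a, Mef2c, Mef2d and Creb1, the most abundant of the list, passed at neither time. Without the low-rRNA libraries at ZT12 and without the single-sex libraries at ZT18, no gene of the upstream, partner and target lists passed. In each of these comparisons 1 of all genes passed.

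Among 8 partners and corepressors, 2 fell at ZT12 and 1 rose at ZT18. For this list and the target lists that follow, the shares of all genes were 3.69% lower at ZT12 and 1.39% higher at ZT18. Nab2, which represses EGR proteins and is itself a target of EGR1, averaged 11.5 CPM in KO against 23.2 CPM in WT at ZT12 (log2 fold change -1.01, SE 0.219, adjusted p = 0.00635) and 34.9 CPM in KO against 18.7 CPM in WT at ZT18 (0.90, SE 0.231, adjusted p = 0.0346). Rxrb, a retinoid X receptor of the kind that pairs with NR4A1 and NR4A2, fell at ZT12 (-0.48, SE 0.115, adjusted p = 0.013). Of 10 known EGR1 target genes, which include Nab2, 1 fell at ZT12 and 3 rose at ZT18: Nab2, the growth factor gene Pdgfb (1.21, SE 0.323, adjusted p = 0.041) and the adhesion molecule gene Icam1 (1.41, SE 0.364, adjusted p = 0.0349). All 10 were positive at ZT18, with a median of 0.66. Of 9 genes known as EGR2 targets in Schwann cells, none passed at ZT12 and 2 rose at ZT18, the myelin genes Mbp (1.25, SE 0.231, adjusted p = 0.00866) and Mag (1.65, SE 0.398, adjusted p = 0.0239).

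Inducible heat shock genes, which respond to protein stress, were followed beside the immediate early genes. Time of day passed the test for 7 of 8 in KO and 8 of 8 in WT, beside 21.9% and 4.91% of all genes. The median of their summed level was highest at ZT6, at 3965 CPM in KO and 4324 CPM in WT, against 2099 to 2571 CPM at the other times. KO ZT6 libraries spread from 1983 CPM in replicate 6 and 2063 CPM in replicate 7 to 10590.5 CPM in replicate 3. Replicates 6 and 7 thus stood no higher than the medians of the other times. At ZT18, 2 of the 8 rose, beside 1.39% of all genes higher in KO. Neither passed without the single-sex libraries, where 1 of all genes did. Hspa1a averaged 143 CPM in KO against 3.49 CPM in WT (adjusted p = 0.0244), and Hspa1b 216 CPM in KO against 1.19 CPM in WT (adjusted p = 0.0352). These 2 genes are near-identical copies, so the split of reads between them is uncertain. The part of this list in the result for the Egr and Nr4a genes was not tested.

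None of the 12 microglia and macrophage markers passed between genotypes at any time. At ZT18 their sums were 9748 to 13680 CPM in KO against 4302 to 12019 CPM in WT and all 12 were positive, with a median log2 fold change of 0.38, and at ZT0 all 12 were negative, with a median of -0.42. None of 6 mural markers passed, with 6 of 6 positive at ZT18 and sums of 207 to 327 CPM in KO against 107 to 178 CPM in WT. Their median log2 fold change was 1.10 at ZT18 and 1.08 at ZT0, where all 6 were positive too. At ZT12 all 6 mural markers were negative, with a median log2 fold change of -0.73. Neuron markers (10), endothelial markers (8) and red blood cell markers (6) were all positive at ZT18 with none past the test, and their medians were 0.63, 0.53 and 0.86. Of 8 astrocyte markers, 3 were positive and 5 negative at ZT18, and none passed. Of the 10 OPC markers, Cspg4 (-0.49, adjusted p = 0.0418) and C1ql1 (-1.03, adjusted p = 0.000774) fell at ZT12, beside 3.69% of all genes. None of the 10 passed at ZT18. Within groups, the summed microglia markers had a Pearson r of 0.569 with Egr1 and -0.384 with Nr4a3, and the ribosomal RNA share had -0.551 with Egr1 and 0.396 with Nr4a3 (38 libraries, deviations from group means). The part of these cells in the results was not tested.

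The genes most like each member over the 38 libraries, by Pearson correlation of log2 CPM among 12683 genes, included several early response genes. For Egr1 they were Ier2 (0.950), Fos (0.950) and Jun (0.932). For Egr2 they were Csrnp1 (0.921), Ccl3 (0.910) and Ets2 (0.910), and for Egr3 Atp6v0c (0.889), Tgif1 (0.888) and Ptgs2 (0.885). Among the genes most like Egr4 were Apold1 (0.860) and Ubald1 (0.83). Nr4a1 was most like Gadd45b (0.920), Cd83 (0.906) and Dusp5 (0.905). Rcan1, a calcineurin inhibitor that calcium signals induce, came first for both Nr4a2 (0.830) and Nr4a3 (0.899). Nr4a2 was followed by Trp53inp2 (0.816) and Tob1 (0.814), and Nr4a3 by Stard4 (0.878) and Il1b (0.850).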

How the data were processed

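The deposited data are 1 table in which the authors give, for 54532 genes and 38 libraries, unnormalized whole-number read counts. Per the submitters' processing notes, fastp, HISAT2 2.0.5 and featureCounts 1.5.0-p3 were used on GRCm38 (mm10). No annotation release or strand setting is given in the sources used here. Sample titles gave each library its group and replicate number.

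Genes kept by filterByExpr of edgeR 4.0.16 (22798 genes, 99.9% of counts) were scaled by TMM and fitted with 1 quasi-likelihood model over 8 groups and all 38 libraries (glmQLFit, glmQLFTest, R 4.3.3). Benjamini-Hochberg adjustment ran over all genes tested, with calls at 0.05, and every adjusted p comes from this test unless an alternative fit is named beside it. CPM is counts per M of the TMM-scaled total, per kb where genes are compared. The SE of a log2 fold change is its size over the square root of F. Correlations used log2 CPM with a prior count of 2. The model was tested on simulated counts. No pair of libraries in a group agreed within counting noise (smallest chi-square per degree of freedom 11.9 over 76 pairs), so each counted as 1 replicate. Nothing says that libraries beyond the pooled mice were separate preparations, so p-values measure the spread between these libraries.

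Named were the 7 genes, up to 4 abundant or called genes of each list, the 3 genes most alike to each member (1 of them is not reported here), and Arntl. Further genes of these lists, and the OPC markers with values, were named after their values were seen. The members, lists and motifs were chosen with earlier results of these data known. Alternatives were RLE or no scaling beyond library size, no filter, DESeq2 1.42.0, limma-voom (limma 3.58.1), a replicate block, 2 groups only, and sets of libraries left out.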

Additional observations from a re-analysis of the deposited data

Results flagged for a closer look

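Single libraries stood apart from their group for 5 of the 56 combinations of gene and group looked at, and chance sets about 5% apart. In the KO ZT18 group, replicate 1 was above the other 3 libraries for Nr4a1 (338 CPM, against 283 CPM in the next) and for Nr4a2 (15.4 CPM, against 12.8 CPM in the next). In the WT ZT0 group, replicate 4 was above the others for Nr4a1 (248 CPM, against 110 CPM in the next) and for Nr4a3 (66.6 CPM, against 10.7 CPM in the next). In the WT ZT18 group, replicate 1 was below the others for Nr4a3 (7.47 CPM, against 8.96 CPM in the next).

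The difference between KO and WT was not the same at all 4 times for 6 genes, by edgeR's quasi-likelihood test of the interaction with Benjamini-Hochberg adjustment. The adjusted p-values were 0.0103 for Egr2, 0.00823 for Egr3, 0.000327 for Egr4, 0.00104 for Nr4a1, 0.0102 for Nr4a2 and 0.0222 for Nr4a3.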

How the results depend on the processing

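Of the 7 genes, the number past the threshold at ZT12 (3) became 0 without the 8 low-rRNA libraries and 1 with the 2 groups fitted alone. At ZT18 it (5) became 3 with library size as the only scaling and 0 without the 13 single-sex libraries. For the interaction it (6) became 0 without the low-rRNA libraries. Calls of all genes in these fits, in the same order, were 1 and 145 at ZT12, against 1139 in the main fit. At ZT18 they were 457 and 1, against 488, and for the interaction 0, against 2096. Over the fits that left out 1 library, the number of the 7 genes ranged from 0 to 1 at ZT0 and 0 to 0 at ZT6. It ranged from 1 to 4 at ZT12, 2 to 6 at ZT18 and 0 to 2 over all times. For the interaction it was 5 to 6, for time in KO 4 to 7 and for time in WT 4 to 5. Of all genes, these fits called 1 to 2208 at ZT0, 259 to 1357 at ZT12 and 44 to 761 at ZT18. For the interaction they called 1049 to 3175 of all genes. Without the single-sex libraries the interaction count of the 7 genes became 4, that of time in WT 3 and that of ZT12 4 (Egr1 gained). The matching counts of all genes were 724, 487 and 712. The WT ZT12 libraries in that fit were all low-rRNA, and no KO ZT12 library was. With 2 groups alone all 7 passed at ZT18, Egr1 as lower (adjusted p = 0.0281), but 2393 of all genes passed too, against 488 in the main fit. At ZT12 the Egr3 call was lost with library size alone (0.0625) and RLE (0.0559) and that of Egr2 with limma-voom (0.0578). At ZT18 the calls of Egr3 (0.0545) and Nr4a2 (0.0534) were lost with library size alone. No called log2 fold change of the 7 genes changed sign under any alternative run, but that of Nr4a3 at ZT12, which was not called, turned to 0.64 without the single-sex libraries. Of all genes, DESeq2 called 1018 at ZT0 against 65, and 1211 at ZT18 against 488. Without KO ZT6 replicates 6 and 7, an alternative chosen after seeing the data, 4 of the 7 passed at ZT12 and 6 at ZT18. Of all genes, 1229 and 610 passed there. Replicate numbers did not pair the libraries (mean r of same-numbered libraries 0.0459, and 8 of 38 closest to their own number). With a replicate block 3 of the 7 passed at ZT12 and 5 at ZT18, beside 726 and 996 of all genes. Egr2 (adjusted p = 0.136) and Egr3 (0.0721) no longer passed at ZT12, whereas Nr4a1 (0.0121) and Nr4a2 (0.0327) did. The ZT18 comparison could not be run without the low-rRNA libraries, which hold every KO ZT18 library. The causes of these differences, the smaller number of libraries among them, were not tested. Counting noise was small: in the group with the fewest reads it was 0.629% of the level for Egr1 and 14.9% for Egr4, against a spread between libraries of 31.0% and 37.4%.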
